A study of Ovis aries with 9 samples.

Results

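The genes described here are 9 enzymes and regulators of glycogen synthesis and breakdown in sheep liver: UGP2, GYG1, GYS2, GBE1, PYGL, PHKA2, PHKG2, PPP1R3B and PPP1R3C. They were chosen by gene name from a table of 21257 genes, and all 9 of the 9 listed names were present. The animals were male Tan sheep, a Chinese breed, aged 5 months. They received a basal diet (control), that diet with 1% succinate, or that diet with 2% succinate, for 60 days after a pretrial period of 10 days. Liver RNA was sequenced in 9 libraries, 3 per diet. Whether the libraries of a diet came from separate sheep is not stated, and the p-values therefore reflect the variation among these libraries alone, part of which may be technical.

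Glycogen is the branched glucose store of the liver, filled after feeding and broken down between meals to hold blood glucose. UGP2 makes UDP-glucose, glycogenin (GYG1) starts a new chain on itself, glycogen synthase (GYS2 in liver) lengthens it and GBE1 adds the branches. Glycogen phosphorylase (PYGL in liver) releases glucose as glucose-1-phosphate after phosphorylase kinase, of which PHKA2 is the liver regulatory alpha subunit and PHKG2 the liver catalytic subunit, has phosphorylated it. PPP1R3B and PPP1R3C carry protein phosphatase 1 to the glycogen particle, where it switches synthase on and phosphorylase off. Ruminants absorb little glucose from the gut and make most of it in the liver, with propionate as a main substrate that enters by way of succinyl-CoA and succinate.

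Recovered reads numbered 13818648 to 18172528 per library. Hepatocyte markers such as albumin had a median of 2157.2 to 3727.9 FPKM (fragments per gene, scaled by the authors to gene length and library size), and skeletal muscle markers a median of 0 to 0.0301. The treatment label and the title of 1% library 3 conflict, since the title gives 2%. The library was kept at 1%, and values with it left out or placed at 2% are given for several genes below. This library held the lowest of the 9 values for 4 of the 9 genes (GYS2, GYG1, GBE1 and PHKA2) and for 27.1% of all tested genes. Control 1 held the highest of the 9 values for 34.0% of all tested genes. Its factor in median-ratio scaling was 1.209, and those of the other libraries were 0.9024 to 1.029. Summed markers of T and NK cells were 31.7 to 44.9 FPKM in controls, 17.5 to 24.9 at 1% and 19.8 to 28.8 at 2%. Of these markers 6 of 6 tested were below control at both doses (5 of 6 at 1% after quantile scaling), and none of the 7 was at 0 in all libraries. Among all tested genes 68.6% were below control at 1% and 60.7% at 2%. Of Kupffer cell and macrophage markers, 6 of 6 were below at 1% and 5 of 6 at 2%. The part of these markers in the results below was not tested.

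PYGL was the most abundant of the 9 transcripts in every library. Its mean over the 9 libraries was 191.1 ± 44.3 FPKM (SD, n = 9), and 2.55% of tested genes had a higher mean. PPP1R3B followed at 75.5 ± 23.2, UGP2 at 69.2 ± 29.4 and PPP1R3C at 64.9 ± 26.7 FPKM. The order of these 3 neighbours differed between diets. PPP1R3B exceeded UGP2 in 3 of 3 controls, 3 of 3 libraries at 1% and 0 of 3 at 2%. UGP2 exceeded PPP1R3C in 2 of 3 controls, 0 of 3 at 1% and 3 of 3 at 2%, where their values did not overlap. GBE1 stood at 24.2 ± 4.22 FPKM and GYS2 at 21.9 ± 7.51, with GBE1 higher in 3 controls, 2 libraries at 1% and 1 at 2%. PHKG2 (11.7 ± 1.90) exceeded PHKA2 (9.02 ± 3.01) in 3 of 3 libraries at 1%, without overlap, and in 1 of 3 in each of the other diets. GYG1 was the lowest of the 9 in every library at 2.60 ± 0.862 FPKM, from 42 to 135 recovered reads. PYGL exceeded PPP1R3B, PPP1R3C exceeded GBE1 and PHKA2 exceeded GYG1 in 9 of 9 libraries. The phosphorylase made up 35.8% to 51.6% of the summed FPKM of these 9 genes, and the synthase 2.19% to 7.02%.

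**Figure D1:**
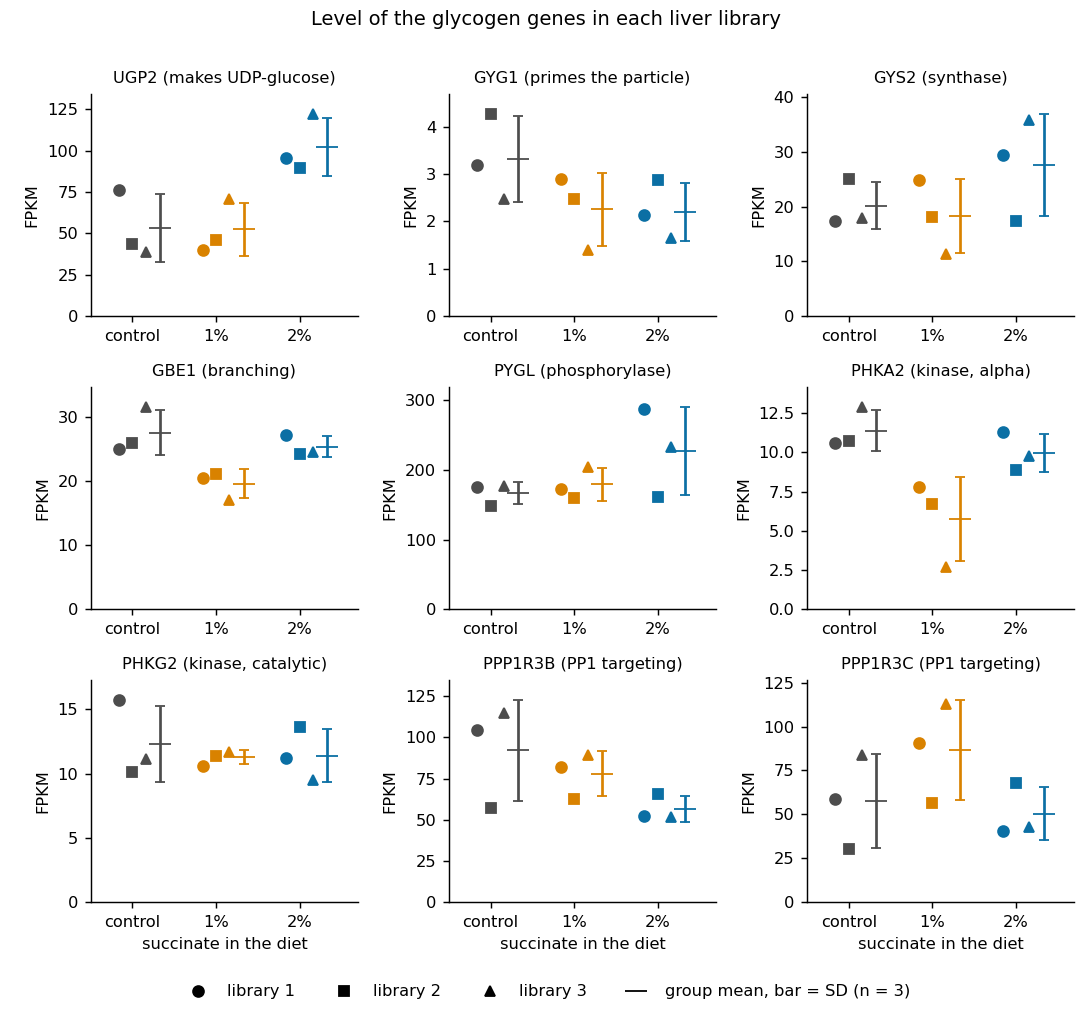
Level of each of the 9 glycogen genes in FPKM (linear axis from 0) in the 3 libraries per diet, with the library number as the symbol and the group mean and SD beside the points. UGP2 lies above all control and 1% libraries in the 3 libraries at 2%, and PHKA2 and GBE1 lie below all other libraries in the 3 libraries at 1%.

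For phosphorylase, synthase and phosphorylase kinase, the liver forms exceeded the forms known from other tissues. PYGL was 57.2 to 164.7 times the brain form PYGB and at least 271.5 times the muscle form PYGM within a library. GYS2 was 2.21 to 8.83 times the muscle synthase GYS1, PHKA2 1.54 to 8.68 times the muscle alpha subunit PHKA1, and PHKG2 3.35 to 8.39 times the muscle catalytic subunit PHKG1, each in 9 of 9 libraries. The lowest of these ratios for GYS2 and PHKA2 both came from 1% library 3. The glycogenin genes are not read here as a liver form and a form of other tissues. GYG1 exceeded the second glycogenin gene GYG2 in 8 of 9 libraries. The exception was control 1, with GYG2 at 4.86 FPKM and GYG1 at 3.20. Among the other targeting subunits of protein phosphatase 1, PPP1R3E reached 2.79 FPKM, PPP1R3D, PPP1R3F and PPP1R3G stayed under 1 FPKM in every library, and the muscle subunit PPP1R3A was listed at 0 throughout. FPKM is scaled to length, so these levels can be compared between genes.

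The comparisons asked whether 1% or 2% succinate in the diet changed these transcripts. With limma on log2(FPKM + 1), 0 of the 9 genes passed an adjusted p of 0.05 in any comparison. Over all 11944 tested genes, 0.0167% passed at 1% against control, 0.0502% at 2% against control, 0% between the doses and 0.0251% in the trend with dose. A second method, voom on recovered reads, also called 0 of the 9 in each. At an unadjusted p under 0.05, 2 of the 9 were lower at 1% (PHKA2 and GBE1), where 14.9% of all tested genes met this threshold and 12.8% did so as lower. At 2% against control, UGP2 was higher and PPP1R3B lower at that threshold, where 5.18% of all tested genes met it, 1.06% as higher and 4.12% as lower. At 2% against 1%, 3 of the 9 were higher (UGP2, PHKA2 and GBE1) against a share of 7.48% of all tested genes, 6.20% as higher. The trend with dose met it for UGP2 (upward) and PPP1R3B (downward), beside 4.23% of all tested genes, 0.887% upward and 3.34% downward. Over all tested genes the middle log2 change was -0.139 at 1%, -0.055 at 2% and 0.071 between the doses. The medians of the 9 were -0.18, -0.11 and 0.31. Of all tested genes 68.6% were below control at 1% and 60.7% at 2%, while after quantile scaling these shares were 48.5% and 47.3%, and the middle change at 1% was 0.010. Without control 1 the middle change was -0.064 at 1% and 0.021 at 2%. At the unadjusted threshold, 434 tested genes were then higher at 2% and 367 lower, instead of 127 and 492. Without control 2 the middle change at 2% was -0.089, with 106 genes higher and 437 lower. Without control 3 it was -0.095, with 94 higher and 659 lower. In whole tissue, fewer cells of a type and less RNA per cell cannot be told apart.

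**Figure D2:**
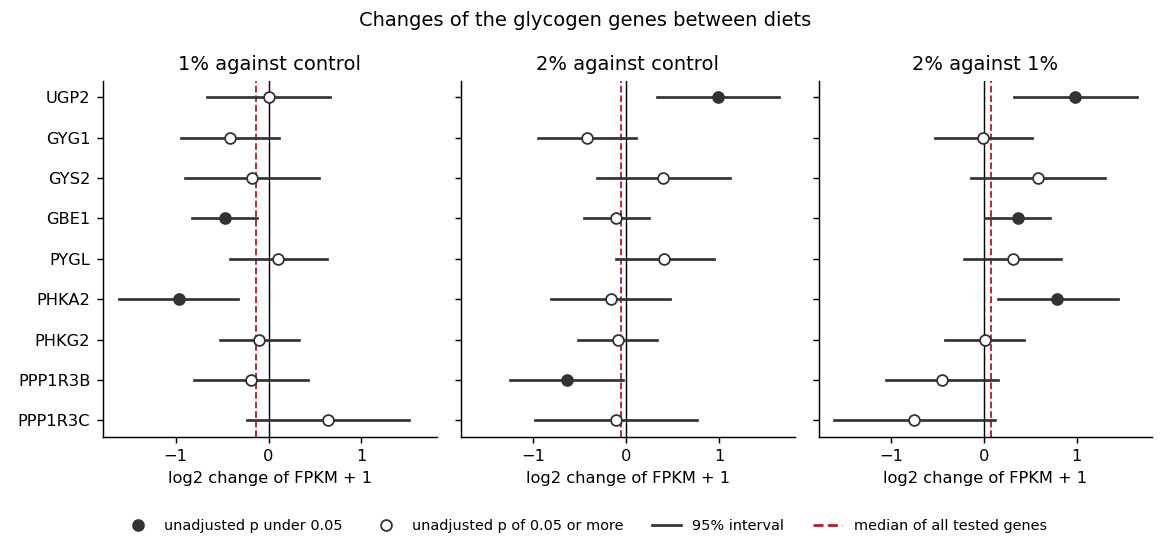
Log2 change of FPKM + 1 with its 95% interval for the 9 glycogen genes in each comparison of diets, with filled points at an unadjusted p under 0.05 and a dashed line at the median of all tested genes. UGP2 has a log2 change of 0.99 at 2% and 0.00 at 1%, and PHKA2 -0.97 at 1% and -0.17 at 2%.

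UGP2, which makes the glucose donor for the synthase, had its highest levels at 2% succinate. Controls stood at 76.5, 43.7 and 38.9 FPKM, the 1% libraries at 40.1, 46.1 and 70.6, and the 2% libraries at 95.6, 89.3 and 122.3. The 3 libraries at 2% lay above all 6 others, while controls and 1% overlapped fully. The mean was 102.4 ± 17.5 FPKM at 2% against 53.0 ± 20.5 in controls, a ratio of 1.93 (SD, n = 3 per group). On the log2 scale the change was 0.99 (SE 0.295, 95% interval 0.33 to 1.65, adjusted p = 0.868, limma). In the same comparison 2.60% of all tested genes lay wholly above control. Against 1% the log2 change was 0.98 (95% interval 0.32 to 1.65, adjusted p = 0.553), and 11.0% of all tested genes were wholly higher there. With 1% library 3 placed at 2%, the 2% group overlapped the controls, and the log2 change against them was 0.86 (adjusted p = 0.469).

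GYG1, the primer of the particle, was lower on average at both doses, with overlap. It stood at 3.20, 4.28 and 2.48 FPKM in controls, 2.90, 2.48 and 1.40 at 1%, and 2.13, 2.87 and 1.65 at 2%. The group means were 3.32 ± 0.906, 2.26 ± 0.771 and 2.21 ± 0.615 FPKM. The log2 changes were -0.41 at 1% (95% interval -0.94 to 0.11, adjusted p = 0.414) and -0.42 at 2% (95% interval -0.95 to 0.10, adjusted p = 0.950), within the spread between libraries. Without 1% library 3 the change at 1% was -0.21 (adjusted p = 0.842). Without control 2 it was -0.26 at 1% and -0.27 at 2%.

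GYS2, the liver synthase, overlapped between all diets. Controls stood at 17.3, 25.0 and 17.9 FPKM, the 1% libraries at 24.9, 18.1 and 11.4, and the 2% libraries at 29.5, 17.4 and 35.8. In detail, 2% library 2 lay at the level of the lower controls while 2% libraries 1 and 3 held the highest values of all. The log2 change was -0.18 at 1% (95% interval -0.90 to 0.54, adjusted p = 0.803) and 0.40 at 2% (95% interval -0.32 to 1.12, adjusted p = 0.950). The value at 2% was 0.69 without 2% library 2, 0.19 without 2% library 3 and 0.12 with 1% library 3 at 2%. Its spread within groups on the log2 scale was at percentile 86.8 of all tested genes. Without 1% library 3, or with it at 2%, the change at 1% had the other sign (0.10 in each case), while without 1% library 1 it was -0.43 and without control 2 -0.02.

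GBE1, the branching enzyme, was the steadiest of the 9 within diets, at percentile 12.9 for spread within groups. It stood at 25.1, 26.0 and 31.6 FPKM in controls, 20.5, 21.2 and 17.0 at 1%, and 27.3, 24.2 and 24.6 at 2%. The 1% libraries lay below all 6 others, and control and 2% overlapped. The 1% mean of 19.6 ± 2.23 against 27.6 ± 3.51 FPKM gave a log2 change of -0.47 (SE 0.158, 95% interval -0.82 to -0.12, adjusted p = 0.278), or -0.33 relative to that of the typical tested gene. In that comparison 15.6% of all tested genes lay wholly below control, so a position of this kind was common. Leaving out 1% library 3 gave -0.38 (adjusted p = 0.697). With that library at 2%, the log2 change between the doses was 0.13 instead of 0.36, and at 2% against control -0.25 instead of -0.11.

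PYGL, the phosphorylase, was close to level in controls and at 1%. Controls stood at 175.1, 148.6 and 176.5 FPKM, the 1% libraries at 173.1, 159.7 and 205.0, and the 2% libraries at 287.3, 161.3 and 233.5. As for GYS2, 2% libraries 1 and 3 held the highest values and 2% library 2 lay among the controls. The log2 change was 0.10 at 1% (95% interval -0.42 to 0.63, adjusted p = 0.856) and 0.41 at 2% (95% interval -0.11 to 0.94, adjusted p = 0.950). Without 2% library 2 it was 0.64 at 2% (adjusted p = 0.876), and without 2% library 1 it was 0.22 (adjusted p = 0.998). Summed stellate and fibroblast markers were 128.7, 48.8 and 185.8 FPKM in 2% libraries 1, 2 and 3, against 55.0 to 68.4 in controls and 57.5 to 68.4 at 1%. In that list 6 of 6 markers had a mean above control at 2% and none was at 0 in all libraries. Its part in the values of GYS2 and PYGL was not tested. Summed hepatocyte markers were 75046.5, 61053.3 and 73079.5 FPKM in the same 3 libraries, and 43916.9 to 71357.0 in controls.

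PHKA2, the regulatory subunit whose loss in humans causes a liver glycogen storage disease, had its lowest levels at 1%. Controls stood at 10.6, 10.7 and 12.9 FPKM, the 1% libraries at 7.77, 6.69 and 2.71, and the 2% libraries at 11.3, 8.87 and 9.79. The 1% libraries lay below all 6 others, with 1% library 3 far below its own group. Of all tested genes, 15.6% lay wholly below control at 1%, and 11.0% were wholly higher at 2% than at 1%. The 1% mean of 5.73 ± 2.67 FPKM was 0.503 of the control mean of 11.4 ± 1.30. The log2 change was -0.97 (SE 0.286, 95% interval -1.61 to -0.33, adjusted p = 0.261), or -0.83 relative to that of the typical tested gene. It was -0.59 without 1% library 3 (adjusted p = 0.620) and also -0.59 with that library at 2% (adjusted p = 0.896). Between the doses it was 0.79 (95% interval 0.15 to 1.44, adjusted p = 0.613), 0.41 without that library and 0.02 with it at 2%. At 2% against control the change was -0.17, and -0.56 with that library at 2%.

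PHKG2, the catalytic partner of PHKA2, was near one level in the 3 diets. It stood at 15.7, 10.1 and 11.1 FPKM in controls, 10.6, 11.4 and 11.7 at 1%, and 11.2, 13.6 and 9.47 at 2%. The 3 groups overlapped, and the log2 change was -0.10 at 1% (95% interval -0.52 to 0.33, adjusted p = 0.822) and -0.09 at 2% (95% interval -0.52 to 0.33, adjusted p = 0.980). The sign at 1% flipped after quantile (0.03) or median-ratio scaling (0.07) and without control 1 (0.08), and at 2% without control 1 (0.08) or 2% library 3 (0.02). The ratio of PHKG2 to PHKA2 was 0.862 to 1.48 in controls, 1.37, 1.71 and 4.31 at 1%, and 0.966 to 1.53 at 2%. The highest of the 9 ratios was that of 1% library 3.

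PPP1R3B, known as the main targeting subunit of liver, had its lowest values at 2%. Controls stood at 104.4, 57.4 and 114.6 FPKM, the 1% libraries at 81.9, 62.9 and 89.2, and the 2% libraries at 52.4, 65.5 and 51.5. Control 2 lay below 2% library 2, so the groups overlapped. The mean was 56.5 ± 7.85 FPKM at 2% against 92.1 ± 30.5 in controls, a log2 change of -0.64 (SE 0.271, 95% interval -1.25 to -0.04, adjusted p = 0.950). The slope was -0.32 log2 units per 1% succinate (95% interval -0.61 to -0.03, adjusted p = 0.998). At 1% the log2 change was -0.19 (adjusted p = 0.745), with a range from -0.50 without control 2 to -0.01 without control 3. Between the doses it was -0.45, and -0.18 with 1% library 3 at 2%.

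PPP1R3C, the related subunit that is also found in muscle and fat, was the most variable of the 9 within diets, at percentile 92.3 for spread within groups. It stood at 58.6, 30.3 and 83.8 FPKM in controls, 90.4, 56.4 and 112.8 at 1%, and 40.5, 67.9 and 43.0 at 2%. All groups overlapped. The log2 change was 0.64 at 1% (95% interval -0.23 to 1.51, adjusted p = 0.437), -0.11 at 2% (95% interval -0.98 to 0.76, adjusted p = 0.989) and -0.75 between the doses (95% interval -1.62 to 0.12, adjusted p = 0.688). The change at 1% was 0.25 without control 2, 0.96 without control 3 and 0.42 without 1% library 3 (adjusted p = 0.761 for the lowest). With that library at 2%, the change between the doses was -0.24. The change at 2% took the other sign after quantile scaling (0.02), with that library at 2% (0.19), and without control 3 (0.21) or 2% library 1 (0.03). It was -0.50 without control 2.

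The balance between both targeting subunits was also read within each library. The ratio of PPP1R3B to PPP1R3C was 1.78, 1.89 and 1.37 in controls, 0.906, 1.11 and 0.791 at 1%, and 1.30, 0.965 and 1.20 at 2%. The 3 controls lay above all 6 libraries with succinate, narrowly, at 1.37 or more against 1.30 or less. How often ratios of other gene pairs separate in this way was not counted. The mean log2 ratio was 0.74 ± 0.249 in controls, -0.11 ± 0.249 at 1% and 0.19 ± 0.220 at 2% (SD, n = 3). A ratio within a library does not change when all its values are multiplied by the same factor, but quantile scaling can change it. The ratio is given as a description without a test, and it does not tell which of the 2 genes differed. The ratio of PYGL to GYS2 showed no such order, at 10.1, 5.94 and 9.88 in controls, 6.95, 8.82 and 17.9 at 1%, and 9.73, 9.26 and 6.52 at 2%.

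**Figure D3:**
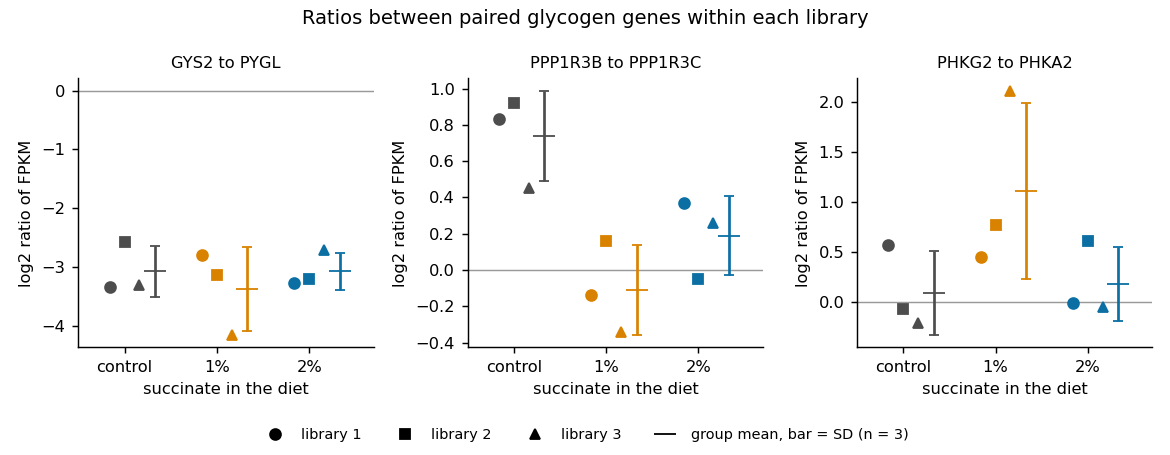
Log2 ratio of FPKM between 2 glycogen genes within each library, by diet, with the group mean and SD beside the points and a line at 0, where both genes have the same level. The PPP1R3B to PPP1R3C ratio is at 0.45 to 0.92 in controls and at or below 0.37 with succinate, while the GYS2 to PYGL ratio overlaps between diets.

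Other genes around glycogen were read from the same fits. Of 16 other glycogen enzymes and regulators 10 were tested, and 0 passed at either dose. At 1%, 1 was above and 9 below control (median log2 change -0.203), beside the 68.6% of all tested genes below control, and after quantile scaling 5 were above and 5 below. At 2%, 5 were above and 5 below (median 0.002). GYG2, the second glycogenin, was at 2.85 ± 1.81 FPKM in controls, 1.14 ± 0.683 at 1% and 0.681 ± 0.0727 at 2%, with log2 changes of -0.80 (adjusted p = 0.323) and -1.09 (adjusted p = 0.868). Control 1 held its highest value, 4.86 FPKM, and the 3 libraries at 2% lay below all controls, as did 8.02% of all tested genes. PYGB was at 1.45 ± 0.312 FPKM at 1% against 2.29 ± 0.761 (adjusted p = 0.366).

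For breakdown in the lysosome and the laforin and malin pair, 5 of 6 genes were tested, 0 passed and all 5 were below control at both doses (medians -0.177 and -0.249). Among all tested genes 68.6% and 60.7% were below. After median-ratio scaling 3 of the 5 were below at 1% and 4 at 2%. After quantile scaling all 5 were below at 1% and 4 at 2%, beside 48.5% and 47.3% of all tested genes. The glycogen-binding receptor STBD1 stood at 62.8 ± 15.9 FPKM in controls and 48.1 ± 6.13 at 2% (adjusted p = 0.950). GABARAPL1, its autophagy partner, was at 98.6 ± 4.40 and 76.8 ± 5.17, and these groups did not overlap (adjusted p = 0.950), a position shared by 8.02% of all tested genes. The laforin gene EPM2A was at 3.00 ± 0.790 in controls and 2.02 ± 0.242 at 1% (adjusted p = 0.337).

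Of 11 genes that supply or release glucose-6-phosphate 7 were tested and 0 passed. At 1%, 1 was above and 6 below control, and at 2%, 2 were above and 5 below, where 68.6% and 60.7% of all tested genes were below. After quantile scaling 6 were below at 1% and 4 at 2%, beside 48.5% and 47.3% of all tested genes. Median-ratio scaling gave the same counts for this list. The glucose-6-phosphatase gene G6PC1 was at 52.2, 64.1 and 56.2 FPKM in controls, 50.2, 34.7 and 29.4 at 1%, and 79.4, 53.7 and 88.4 at 2%. The 1% libraries lay below all others (log2 change -0.61, adjusted p = 0.315), with 1% library 1 at 50.2 close to control 1 at 52.2. Of all tested genes, 15.6% lay wholly below control at 1%, and 11.0% were wholly higher at 2% than at 1%. Its transporter SLC37A4 stood at 67.6 ± 15.6 FPKM in controls and 46.2 ± 4.58 at 2% (log2 change -0.52, adjusted p = 0.950). The glucose transporter SLC2A1 was at 4.95 ± 1.34 FPKM at 1% and 2.21 ± 0.622 in controls (log2 change 0.88, adjusted p = 0.254).

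Of 29 genes for hormone signals and kinases in the table, 28 were tested and 0 passed, with 11 above and 17 below control at each dose (medians -0.073 and -0.107), beside 68.6% and 60.7% of all tested genes below. After quantile scaling 16 were above and 12 below at 1%. The insulin receptor INSR was at 17.9 ± 1.28 FPKM in controls, 13.6 ± 2.52 at 1% and 14.4 ± 1.11 at 2%, with controls above all 6 others (adjusted p = 0.324 and 0.950). At 1% alone 15.6% of all tested genes lay wholly below control, and at 2% alone 8.02%. PRKAA2, a catalytic subunit of AMP-activated kinase, was at 6.98 ± 1.22 in controls and 4.08 ± 1.28 at 1% (log2 change -0.67, adjusted p = 0.267). Casein kinase subunit CSNK2A1, which primes glycogen synthase for further phosphorylation, was at 27.4 ± 0.793 in controls and 21.4 ± 1.13 at 2% (log2 change -0.34, adjusted p = 0.950). The insulin receptor substrate IRS1 was at 12.6 ± 2.80 and 8.60 ± 1.91 in the same groups (log2 change -0.51, adjusted p = 0.950).

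**Figure D4:**
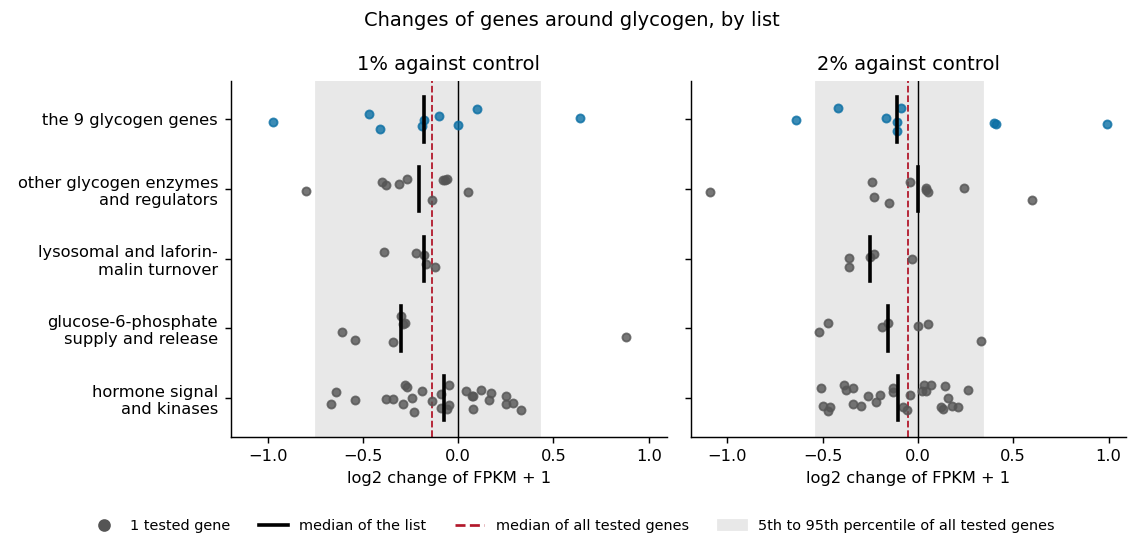
Log2 change of FPKM + 1 against control for each tested gene (points) in 5 lists around glycogen, with the median of each list as a bar, the median of all tested genes as a dashed line and their 5th to 95th percentile as a grey band. List medians lie from -0.305 to -0.073 at 1% and from -0.249 to 0.002 at 2%, and the points farthest out are PHKA2 and SLC2A1 at 1% and GYG2 and UGP2 at 2%.

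Likeness of profile was measured as the mean absolute difference of z scores of log2(FPKM + 1) over the 9 libraries. Genes near to GYS2 were TUBAL3 (0.212) and MARVELD3 (0.251), and its nearest among the other 8 glycogen genes was PHKA2 (0.690). TUBAL3 and MARVELD3 had low levels, at 0.0603 to 4.10 and 0.466 to 2.16 FPKM, each lowest in 1% library 3. The nearest to PYGL were A1CF (0.194), CDK17 (0.280) and DCN (0.306), and among the glycogen genes UGP2 (0.647). DCN, the decorin gene of stellate cells and fibroblasts, was at 30.0, 17.7 and 32.3 FPKM in 2% libraries 1, 2 and 3. In each of these 5 genes, 2% libraries 1 and 3 held the highest values, as in GYS2 and PYGL, which is what the measure selects for.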

How the data were processed

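Per the file headers, the authors deposited 1 table of FPKM per gene. For the aligner, counter, annotation and strand use, nothing is given in the sources used here. GRCm38 and mm10, both mouse builds, appear in the submitters' processing notes, while gene names are those of sheep, so no coordinates are printed. All 9 names matched RefSeq symbols (ARS-UI_Ramb_v3.0, used for names only). Reads shared between paralogs may be misassigned.

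For 17402 of 17402 genes above 0 in at least 2 libraries, FPKM moved in steps of 1 read (tolerance 0.01), which gave recovered reads. Values were transformed to log2(FPKM + 1), and all 9 libraries entered a moderated, intensity-trended fit with limma 3.58.1 (R 4.3.3). This scale understates changes of low genes. The filter was at least 1 FPKM in at least 3 libraries, which left 11944 genes and all 9 described here. P-values are two-sided and adjusted by Benjamini-Hochberg over all tested genes, at a threshold of 0.05. The trend used succinate percent as a number. The fit was also run on simulated data with the same dispersion set for all genes. That run does not show how small a change could be detected in the genes described here. Python 3.11.15, pandas 2.3.3 and numpy 2.4.6 made tables, matplotlib 3.10.9 the plots.

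Genes and lists were chosen with earlier results of these data known. From each of the 4 other lists, the 2 genes with the smallest p per comparison with control were named, and for GYS2 and PYGL the 3 genes with the nearest profile. Some genes selected by these rules are not reported here. Genes named for isoform levels (PYGM, GYS1, PHKA1, PHKG1, PPP1R3A and PPP1R3D to PPP1R3G) were chosen from the fixed lists after their values were seen.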

Additional observations from a re-analysis of the deposited data

How the results depend on the processing

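No call was gained or lost among the 9 glycogen genes: 0 passed in any comparison under any alternative run, and the smallest adjusted p was 0.0962 (PHKA2 at 1% without 1% library 1). Of 36 pairs of gene and comparison, 25 kept their direction throughout, and 32 of 635 recomputed changes took the other sign. The cause was not tested. With 1% library 3 at 2%, the log2 change was 0.10 for GYS2 and -0.23 for UGP2 at 1%, and for PPP1R3C 0.19 at 2% and 0.08 in the trend. Quantile scaling gave PHKG2 0.03 at 1% and -0.06 between doses, and PPP1R3C 0.02 at 2% and 0.01 in the trend. Median-ratio scaling gave PHKG2 0.07 and -0.10. Leaving out 1 library gave ranges across 0 at 1% for GYS2 (-0.43 to 0.10), UGP2 (-0.23 to 0.29) and PHKG2 (-0.21 to 0.08), at 2% for PHKG2 (-0.21 to 0.08) and PPP1R3C (-0.50 to 0.21), between doses for GYG1 (-0.21 to 0.13) and PHKG2 (-0.12 to 0.12), and in the trend for GBE1 (-0.11 to 0.02), PPP1R3C (-0.29 to 0.06), PHKA2 (-0.19 to 0.02) and PHKG2 (-0.11 to 0.04).

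Of the 9 genes at an unadjusted p under 0.05, the 2 at 1% became 1 after either scaling and 0 with 1% library 3 at 2%. The 2 at 2% became 1 after median-ratio scaling, as did the 2 in the trend, and the 3 between doses became 1 with that library at 2%. Leaving out 1 library gave 1 to 2 at 1%, 1 to 3 at 2%, 1 to 5 between doses and 0 to 4 in the trend.

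Over all genes, the 2 calls at 1% became 0 under each scaling, pseudocount 0.1, either filter, voom, the replicate block, the fit of the compared groups alone and 1% library 3 at 2%. The 6 at 2% became 3 with no filter or voom, 1 with a mean FPKM of at least 5, the block or that library at 2%, and 0 in the fit of the compared groups alone. The 3 in the trend became 1 with the mean filter and 0 with the block or that library at 2%. Leaving out 1 library gave 0 to 4 at 1%, 0 to 7 at 2%, 0 to 1 between doses and 0 to 5 in the trend. The split of genes at an unadjusted p under 0.05 at 1%, 252 higher and 1526 lower, was 832 and 702 after quantile and 980 and 699 after median-ratio scaling. Without control 1 this split was 712 and 1143. Whether same-numbered libraries share a stall or batch is not stated. Their deviations correlated from -0.295 to 0.278, and those of differently numbered libraries from -0.293 to 0.453. With 3 libraries per diet these values cannot settle pairing, so the block is not read as a paired design. GYG1, from 42 reads upward, has the largest counting error of the 9.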
